A study of Mus musculus with 34 samples.

Results

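The mitochondrial ribosomal proteins examined here were all genes whose symbol begins with Mrpl or Mrps followed by a digit, without pseudogenes. The rule gave 77 genes among the 15777 genes of the adipose and heart count tables. By symbol, 48 belonged to the large (Mrpl) and 29 to the small (Mrps) subunit. All 77 were in the adipose table of 15145 genes, and 76 were in the heart table of 13238 genes, where Mrpl23 had no entry. Every one of them passed the filter on low counts in the tables that held it. The symbol Mrps36-ps2 in the heart table matched the start of the rule and was left out as a pseudogene.

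RNA was measured by total RNA sequencing after ribosomal RNA depletion in the heart and in fat of C57BL/6J mice aged 20 to 22 months. The study asked how periodic cycles of a fasting mimicking diet (FMD) act in animals kept on a fatty diet. Control animals ate a diet with 10% of calories from fat. Animals of the HFCD group ate a high fat, high calorie diet with 60% of calories from fat. Animals of the HFCD+FMD group ate the same fatty diet, interrupted every 4 weeks by 5 days of FMD, and from cycle 6 each FMD was followed by 2 days of control diet. Tissue was taken after 11 cycles, 4 days after the last one, so the effect of repeated cycles and that of recent refeeding cannot be told apart. The labels name neither a genetic change nor the adipose depot. Of 34 labelled libraries, 27 had a column in the count tables: 3 control, 4 HFCD and 6 HFCD+FMD libraries of adipose tissue, and 5, 5 and 4 of heart.

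Mitochondria build a small set of inner membrane proteins on ribosomes of their own. The RNA of these mitoribosomes is encoded in mitochondrial DNA, whereas all of their proteins are encoded in the nucleus, made in the cytosol and imported. The small subunit binds the messenger RNA and reads codons, and the large subunit joins amino acids and threads the new chain through an exit tunnel towards the inner membrane. Many members have bacterial counterparts, and others exist only in mitochondria. Defects of several members cause inherited disease of oxidative phosphorylation, and the heart is among the affected organs. Symbols do not always follow location, since the proteins of Mrps30 and Mrps18a have been placed in the large subunit and that of Mrps36 is known as a part of the 2-oxoglutarate dehydrogenase complex.

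Libraries held 15604982 to 40831656 counts in adipose tissue and 16848195 to 47859170 in heart. White adipocyte markers (7 of 7 measured) summed to 15740 to 42300 normalised read counts scaled to library size (CPM) in adipose tissue, and cardiomyocyte markers (7 of 7) to 29630 to 58620 CPM in heart, against 2.99 to 130.9 CPM in adipose tissue. Some libraries stood apart. Adipose control replicate 1 held 253.9 CPM of brown adipocyte markers (6 of 7 measured), against 7.62 to 20.3 CPM in the other 12, and Ucp1 stood at 130.3 CPM there, against 0.08 and 0.53 CPM in the other controls. In heart, HFCD replicates 3 and 5 and HFCD+FMD replicates 3 and 5 had 59.8% to 71.5% of their counts on mitochondrially encoded genes, against 21.8% to 42.7% in the other 10. Atrial muscle markers (4 of 4) summed to 2134 CPM in heart HFCD replicate 5 and 676.3 CPM in HFCD replicate 3, against at most 124.5 CPM elsewhere in heart. Heart control replicate 2 had raised values of short transcripts, which are described with the heart results. In tissue RNA, fewer cells of a type and less RNA per cell cannot be told apart, and p-values measure the spread between libraries, since no label says which libraries came from which animal.

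Members differed widely in level. Levels between genes were compared as CPM per kilobase of the principal transcript. In adipose tissue of control animals, Mrps6 stood at 114.4 ± 17.8 CPM per kb, Mrps15 at 111.2 ± 27.1 and Mrpl42 at 102.7 ± 15.1 (SD, n = 3), and these leading levels were closer to each other than their spread. The Mrps6 value carries a caution, because 159 bp of its exons lie on the same strand within exons of Slc5a3, the myo-inositol transporter gene. The lowest member was Mrpl23 at 0.800 ± 0.646 CPM per kb, with as few as 6 counts in a library, followed by Mrps23 at 1.94 ± 0.52. In heart of control animals, Mrpl42 led with 217.3 ± 58.1 CPM per kb (SD, n = 5), ahead of Mrpl30 at 92.8 ± 28.1 and Mrpl33 at 72.8 ± 24.5. The latter pair differed by less than their spread. By the mean over diets Mrps33, Mrps26 and Mrps23 were lowest in heart, and in controls they stood between 3.06 and 3.97 CPM per kb.

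The summed level of the large subunit genes in adipose tissue was 1536, 1222 and 1116 CPM per kb in the 3 control libraries. In the 4 HFCD libraries it was 977.6, 967.1, 922.9 and 906.7 CPM per kb, and in the 6 HFCD+FMD libraries it ran from 918.8 to 1155 with a mean of 1084 ± 87.4 (SD). Every HFCD library thus lay under every control library, while the HFCD+FMD libraries overlapped both. The sum of the small subunit genes showed the same order, with 840.4, 687.0 and 595.1 CPM per kb in controls, 505.0, 477.3, 470.9 and 469.1 on HFCD, and 486.2 to 652.9 on HFCD+FMD. On HFCD the mean sums were 73.1% of the control mean for the large and 67.9% for the small subunit, and on HFCD+FMD they were 83.9% and 80.8%. The ratio of the large to the small sum was 1.83 ± 0.05 in controls, 1.96 ± 0.04 on HFCD and 1.91 ± 0.13 on HFCD+FMD. Its most abundant genes weighed on the small subunit sum. Without the 3 members of highest level over both subunits (Mrps6, Mrpl42 and Mrps15), that sum stood at 72.1% of the control mean on HFCD. These sums are descriptions and were not tested.

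**Figure D1:**
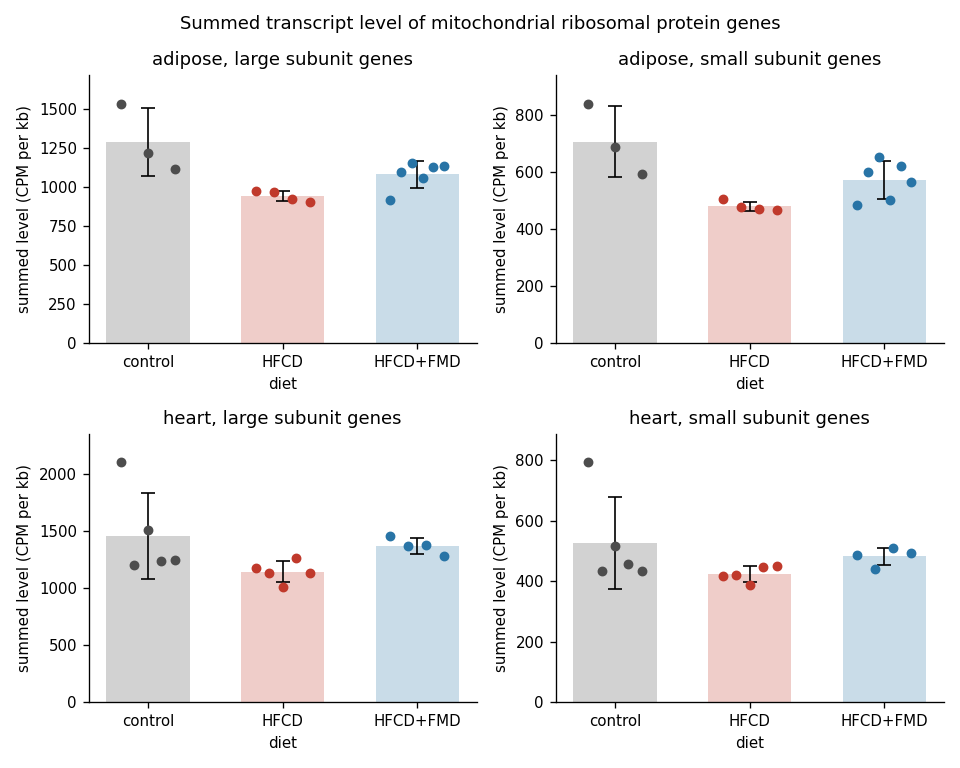
Summed level of the large and small subunit genes (vertical axis, CPM per kb of transcript) in each library of adipose tissue and heart by diet; points are libraries, and bars show the mean and SD. In adipose tissue every HFCD library lies below every control library, whereas in heart 1 control library, at 2104 for the large subunit, stands far above the rest.

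Compared with control animals, HFCD animals had lower transcript levels of mitoribosomal proteins in adipose tissue. In the edgeR quasi-likelihood test, 38 of the 77 genes fell and 0 rose at an adjusted p under 0.05. Over all 15112 genes tested, 14.2% fell and 15.7% rose. Both subunits, as assigned by symbol, took part, with 25 of 48 large subunit genes (52.1%) and 13 of 29 small subunit genes (44.8%). The median log2 fold change was -0.45 for the large and -0.41 for the small subunit, against 0.00 over all genes. Estimates were negative for 71 members, and for 42 members every HFCD library lay below every control library, as it did for 18.9% of all genes.

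Among large subunit genes the smallest p belonged to Mrpl12 (chromosome 11, 120484613 to 120489065, GRCm38), which encodes the protein of the flexible stalk that recruits translation factors to the ribosome. Its level was 80.1, 67.6 and 52.8 CPM in the control libraries and 33.4, 36.9, 34.6 and 31.8 CPM in the HFCD libraries, and on HFCD+FMD it ran from 41.4 through a median of 51.5 to 56.8 CPM. The HFCD libraries sat close together, below all others of the tissue. The log2 fold change of HFCD against control was -0.97 (SE 0.14, edgeR adjusted p = 0.000994).

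Mrpl38, whose protein sits in the central protuberance of the large subunit, fell by a similar amount. It stood at 64.0, 43.6 and 43.1 CPM in controls and at 24.8, 23.7, 29.2 and 22.5 CPM on HFCD (log2 fold change -1.001, SE 0.15, edgeR adjusted p = 0.00138). The groups did not overlap, and control replicate 1 was the highest of all 13 libraries. For Mrpl39, a mitochondria-specific protein related in sequence to threonyl-tRNA synthetase, control libraries held 76.3, 55.7 and 50.7 CPM and HFCD libraries 28.8, 27.6, 31.9 and 37.7 CPM (log2 fold change -0.95, edgeR adjusted p = 0.00188). Mrpl42, an abundant large subunit gene, went from 68.4 ± 10.1 CPM (SD, n = 3) in controls to 38.9 ± 5.89 CPM (n = 4) on HFCD (log2 fold change -0.81, edgeR adjusted p = 0.00268).

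Other large subunit genes that fell covered several working parts of the particle. Mrpl51 (-0.83), Mrpl49 (-0.65) and Mrpl50 (-0.68) encode proteins found only in mitochondrial ribosomes. Mrpl1, counterpart of the protein of the mobile stalk by which spent transfer RNA leaves, fell by 0.61 on the log2 scale. Mrpl22, whose protein lines the exit tunnel, fell by 0.94, from 15.7 to 8.13 CPM. Mrpl11, a protein of the stalk base, fell by 0.48 (edgeR adjusted p = 0.0421). Mrpl58, a peptidyl-tRNA hydrolase built into the large subunit, fell by 0.46 (edgeR adjusted p = 0.0117), and Mrpl37 by 0.49 (edgeR adjusted p = 0.0238). Mrpl3, a core protein of the large subunit, was barely under the threshold (log2 fold change -0.30, SE 0.11, edgeR adjusted p = 0.0469), although its 3 control libraries, at 38.7 to 41.1 CPM, all exceeded its HFCD libraries, at 29.7 to 34.4 CPM.

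Among small subunit genes, Mrps15 (chromosome 4, 126046925 to 126055532, GRCm38) showed the greatest fold among those that passed. Its protein is the counterpart of a bacterial protein that binds small subunit RNA early in assembly. Control libraries held 130.0, 103.4 and 79.3 CPM and HFCD libraries 31.4, 24.6, 46.5 and 49.4 CPM, giving a log2 fold change of -1.46 (SE 0.29, edgeR adjusted p = 0.0044). The spread within HFCD was wide, but its highest library still lay well below the lowest control. Mrps17 was the most uniform, with 64.1, 51.7 and 47.7 CPM in controls against 35.4, 35.8, 34.2 and 35.6 CPM on HFCD (log2 fold change -0.63, SE 0.10, edgeR adjusted p = 0.00186). All 4 HFCD libraries of Mrps17 agreed within a few percent.

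Mrps2, a protein near the messenger RNA path, stood at 72.8, 50.9 and 44.1 CPM in controls and at 28.8, 26.96, 33.1 and 41.05 CPM on HFCD (log2 fold change -0.78, SE 0.19, edgeR adjusted p = 0.00958). The top HFCD library came close to the bottom control library without reaching it. Mrps5, counterpart of a bacterial protein at the messenger RNA entry, fell by 0.40 (edgeR adjusted p = 0.0254), and Mrps12, counterpart of the bacterial decoding centre protein, fell by 0.43 (edgeR adjusted p = 0.046). The mitochondria-specific Mrps22 and Mrps35 fell by 0.56 and 0.89. Mrps21 fell by 0.81 and Mrps30 by 0.69.

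The 3 Mrps18 paralogs did not all pass. Mrps18a fell by 0.51 (edgeR adjusted p = 0.0103), whereas the estimates of Mrps18b (-0.40, adjusted p = 0.0852) and Mrps18c (-0.22, adjusted p = 0.51) did not pass. Whether the paralogs differ from each other was not tested. Further members that did not pass were Mrpl13 at -0.26, Mrps16 at -0.41, Mrps34 at -0.24 and Mrps7, at -0.12 (edgeR adjusted p = 0.709). Mrps36 had a large estimate, -1.43, with an SE of 0.72 (edgeR adjusted p = 0.148). Its controls held 6.97, 7.38 and 6.63 CPM, and its HFCD libraries split into 0.496 and 0.806 CPM in replicates 1 and 2 against 4.08 and 5.15 CPM in replicates 3 and 4. Mrps36 also has 3 named pseudogenes, so its reads may be shared.

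6 members had positive estimates and did not pass, among them Mrpl44, an RNase III related protein of the large subunit, at 0.10 (edgeR adjusted p = 0.776). Mrpl44 read 22.2, 12.6 and 15.7 CPM in controls and 21.4, 21.1, 14.6 and 14.3 CPM on HFCD, so the groups overlapped fully. Mrpl23 had the highest positive estimate, 0.56 (edgeR adjusted p = 0.445), at very low counts.

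**Figure D2:**
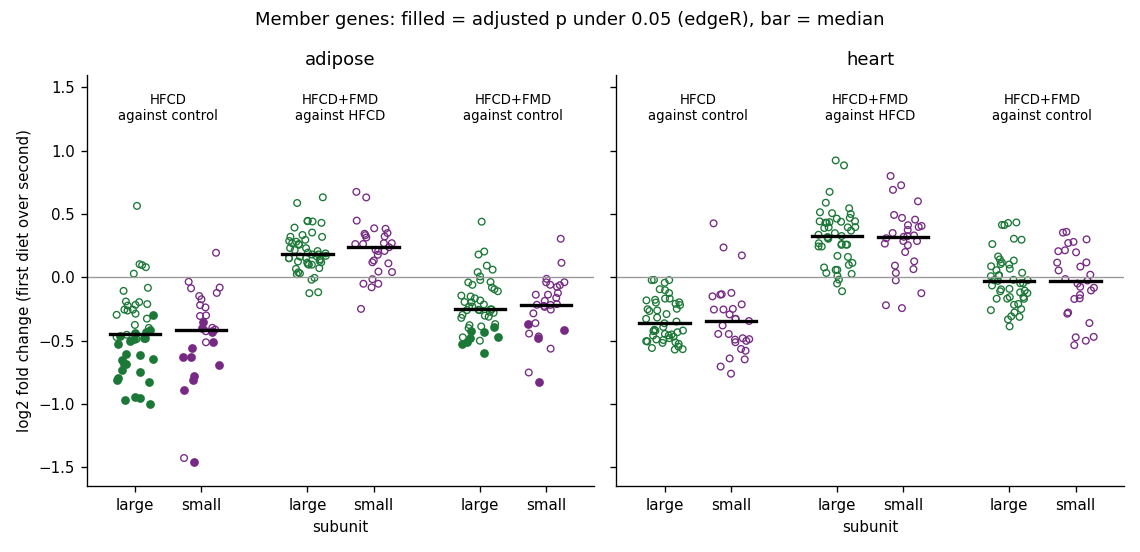
Log2 fold change of every member gene (vertical axis, first diet over second) for the 3 diet comparisons in adipose tissue and heart, large and small subunit side by side; filled points passed an edgeR adjusted p under 0.05, and bars mark medians. In adipose tissue 38 members are filled for HFCD against control and 12 for HFCD+FMD against control, all below zero; no heart member is filled.

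The count was smaller without control replicate 1. This was the highest library for 54 of 77 members, and it also held the brown adipocyte markers named above and 29.3% mitochondrially encoded counts, against 12.6% and 17% in the other controls. It had the fewest counts of the tissue, 15604982, and the lowest median rank correlation with the other libraries, 0.929 against 0.952 to 0.979. Genes with transcripts under 1000 bp deviated from the median over libraries by 0.29 on the log2 scale there and those over 4000 bp by -0.16, whereas the short genes deviated by 0.06 in each of the other controls, -0.09 to -0.02 on HFCD and -0.08 to 0.06 on HFCD+FMD. The part of these measures in the fall was not tested. Without it, 19 members fell, all of them among the 38, and 6.83% of all genes fell. The medians were then -0.28 for the large and -0.28 for the small subunit. Mrpl12 (-0.81, edgeR adjusted p = 0.0057), Mrpl38 (-0.79), Mrpl39 (-0.75), Mrps17 (-0.49) and Mrps15 (-1.26, adjusted p = 0.0244) still passed. Mrps2 (adjusted p = 0.0543), Mrps18a (0.0558), Mrpl58 (0.0553), Mrps5 (0.0736), Mrpl37 (0.125), Mrpl3 (0.147), Mrps12 (0.214) and Mrpl11 (0.241) no longer passed. With each of the 13 libraries left out in turn, 18 of the 38 genes passed every time.

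Cell markers and RNA composition moved with diet in adipose tissue. Macrophage markers (7 of 7) summed to 127.6 to 737.5 CPM in controls, 1168 to 2578 CPM on HFCD and 569.7 to 1699 CPM on HFCD+FMD. White adipocyte markers summed to 26310 to 42300, 20270 to 24580 and 15740 to 22500 CPM in the same order, with Fabp4 the largest part of each sum. Within that list Lep ran the other way, at 351.1 to 871.2 CPM in controls and 3368 to 5587 CPM on HFCD. Cidec and Adipoq overlapped between these diets, and the remaining listed genes were lower on HFCD. Mesothelial markers (5 of 5) summed to 165.5 to 377.8, 20.5 to 105.4 and 27.3 to 181.1 CPM for control, HFCD and HFCD+FMD. Endothelial markers (4 of 4) summed to 692.2 to 850.5 CPM in controls, 1071 to 1256 CPM on HFCD and 972.2 to 2140 CPM on HFCD+FMD. Mitochondrially encoded genes took 19.6 ± 8.66% of counts in controls, 4.00 ± 2.06% on HFCD and 5.35 ± 2.17% on HFCD+FMD (SD, n = 3, 4 and 6). Their part in the fall of the members was not tested. Members are short, with a median principal transcript of 1316 bp against 3041 bp for 14038 other protein-coding genes. With each library's trend of level on transcript length taken out, 32 members fell, 31 of them among the 38, and Mrps18a, Mrps22 and Mrps12 no longer passed.

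Some genes that work with the mitoribosome fell in the same comparison. Of 5 measured mitoribosomal proteins with other names 3 fell, namely Ptcd3 (log2 fold change -0.71), Chchd1 (-0.62) and Gadd45gip1 (-0.71), while Dap3 and Aurkaip1 did not pass. Of 16 mitochondrial translation factors 8 fell, among them the elongation factor Gfm1 (-0.58, edgeR adjusted p = 0.00902), the recycling factor Gfm2 (-0.56), the release factor Mtrf1l (-0.73) and Rmnd1 (-0.93). Of 19 mitochondrial aminoacyl-tRNA synthetase genes 4 fell, led by Rars2 (-0.55). Of 28 genes for mitoribosome assembly and RNA modification 9 fell, including the rRNA methyltransferase Tfb1m (-0.60) and the pseudouridine synthase Trub2 (-1.04). The median of these lists was -0.62, -0.43, -0.24 and -0.36. Without control replicate 1, the counts were 2 of 5, 1 of 16, 1 of 19 and 5 of 28. Over all genes 14.2% fell with that library and 6.83% without it, and 1 of 16 and 1 of 19 lie under that second share. Of 14 mitochondrially encoded genes tested 12 fell with a median of -2.67, and 11 fell without that library. Cytosolic ribosomal proteins, which belong to the ribosomes outside mitochondria, showed no shift of the median (-0.03), with 8 falling and 2 rising of 77.

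Of 9 transcriptional regulators of nuclear mitochondrial genes, 1 fell, which lies under the 14.2% of all genes that fell. It was the coactivator gene Ppargc1a, at -1.44 (edgeR adjusted p = 0.036), and it did not pass without control replicate 1. Ppargc1a stood at 21.9 CPM in control replicate 1, 5.91 and 3.44 CPM in the other controls, and 2.81 to 5.09 CPM on HFCD. Nrf1 (0.19), Esrra (0.32) and Gabpa (-0.02) had estimates that did not pass.

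The promoters of the members were read for the letters of factors known to act on nuclear mitochondrial genes. RefSeq windows on GRCm38.p6 from 250 bases before to 50 bases after each start were matched for 68 of the 77 genes, giving 74 member windows among 32851. Letters were searched on both strands. The NRF1 letters GCGCATGC, which overlap their own reverse complement in GCGCATGCGC, stood in 10.811% of member windows and 2.712% of all windows. The ETS letters CCGGAAGT, bound by GABPA, stood in 16.216% and 3.887%, and the YY1 letters AAGATGGC in 16.216% and 2.749%. The letters TCAAGGTCA of the estrogen related receptors stood in none of the member windows and in 0.423% of all, and the E-box CACGTG in 9.459% and 7.15%. The 7 member windows with the E-box belonged to 5 of the 68 genes, since overlapping windows of Mrpl2 hold the same one. The 250 bases upstream of 4 genes that fell on HFCD are shown 5′ to 3′ on the gene's strand, 2 with NRF1 letters and 2 with ETS letters, with matched letters in capitals. They are Mrpl39 (chr16:84735245-84735494, minus strand), Mrpl32 (chr13:14613038-14613287, minus strand, which also holds the YY1 letters in reverse), Mrpl51 (chr6:125191950-125192199, plus strand) and Mrps22 (chr9:98601680-98601929, minus strand).
Mrpl39: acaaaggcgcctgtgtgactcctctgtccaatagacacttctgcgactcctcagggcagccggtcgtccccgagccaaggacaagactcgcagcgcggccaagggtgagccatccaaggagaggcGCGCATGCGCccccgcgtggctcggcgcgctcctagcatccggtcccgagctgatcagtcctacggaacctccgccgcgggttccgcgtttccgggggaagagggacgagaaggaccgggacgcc
Mrpl32: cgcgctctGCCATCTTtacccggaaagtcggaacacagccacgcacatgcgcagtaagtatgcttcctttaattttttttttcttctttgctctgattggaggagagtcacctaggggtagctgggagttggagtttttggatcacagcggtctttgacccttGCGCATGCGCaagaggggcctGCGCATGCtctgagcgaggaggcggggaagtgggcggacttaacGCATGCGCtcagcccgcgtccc
Mrpl51: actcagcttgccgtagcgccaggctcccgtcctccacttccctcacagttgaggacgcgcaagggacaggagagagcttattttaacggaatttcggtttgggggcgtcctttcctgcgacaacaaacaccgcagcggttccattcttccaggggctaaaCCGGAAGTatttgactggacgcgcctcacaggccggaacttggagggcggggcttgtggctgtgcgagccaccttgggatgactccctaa
Mrps22: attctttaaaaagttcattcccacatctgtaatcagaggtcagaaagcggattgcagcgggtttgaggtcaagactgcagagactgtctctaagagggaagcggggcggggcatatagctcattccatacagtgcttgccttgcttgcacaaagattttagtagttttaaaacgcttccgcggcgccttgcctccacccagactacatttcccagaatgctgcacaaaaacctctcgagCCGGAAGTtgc

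Of 21 genes with NRF1, ETS or YY1 letters in the 250 upstream bases, 10 fell on HFCD in adipose tissue, with a median log2 fold change of -0.40. Of 47 genes without them 26 fell, with a median of -0.48. Over the whole window, with the 50 bases after the start, 29 genes held such letters, so some of the 47 held them there. A match is a description of letters in a window, and binding was not measured.

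HFCD+FMD was compared with HFCD to ask whether the cycles moved these genes within the fatty diet. In adipose tissue 0 of 77 members passed in edgeR, where 0.205% of all genes did. At an unadjusted p under 0.05, 25 members were higher and 0 lower, against 5.46% of all genes higher and 5.74% lower. The 25 became 15 without HFCD+FMD replicate 3 and 16 without HFCD replicate 2, the lowest counts with a library left out, and 32 without HFCD+FMD replicate 1. DESeq2 called 7 members higher, against 0.769% of all genes, limma voom called 0, and voom with quality weights called 8. For voom with quality weights the share of all genes is not given here. The median estimate was 0.18 for the large and 0.24 for the small subunit, against 0.01 over all genes, and 68 of 77 estimates were positive. For 13 members every HFCD+FMD library lay above every HFCD library, as for 1.39% of all genes.

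Mrpl12 had the smallest p, with 51.3 ± 5.45 CPM (SD, n = 6) on HFCD+FMD against 34.2 ± 2.12 CPM (n = 4) on HFCD. Its lowest HFCD+FMD library, at 41.4 CPM, exceeded its highest HFCD library, at 36.9 CPM (log2 fold change 0.59, SE 0.12, edgeR adjusted p = 0.0745). Mrpl38 ran from 31.3 through a median of 39.9 to 42.7 CPM on HFCD+FMD and stood at 22.5 to 29.2 CPM on HFCD (0.63, SE 0.13, edgeR adjusted p = 0.0912). Both groups were separate for Mrpl38 as well. Mrpl51 (0.43), Mrps5 (0.39), Mrps18a (0.38), Mrps22 (0.34) and Mrpl39 (0.35) had adjusted p of 0.184 to 0.357. Mrps15 ran from 39.6 to 78.3 CPM on HFCD+FMD, overlapping the 24.6 to 49.4 CPM of HFCD (0.63, edgeR adjusted p = 0.38).

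Against control, 12 members fell on HFCD+FMD in adipose tissue, 8 of the large and 4 of the small subunit, and 0 rose. Over all genes 9.25% fell and 10.5% rose. These comparisons share the control libraries, so they are not independent of each other. The medians were -0.25 and -0.22. Mrpl1 (-0.43, edgeR adjusted p = 0.0146), Mrpl39 (-0.59), Mrpl42 (-0.52), Mrps17 (-0.37) and Mrps15 (-0.82, adjusted p = 0.044) were among the 12. Mrpl12 did not pass at -0.38 (adjusted p = 0.0528). Without control replicate 1, 0 members passed in edgeR, where 1.92% of all genes fell, and 8 members were lower and 1 higher at an unadjusted p under 0.05. Without control replicate 5, 23 passed, and the share of all genes in that fit is not given here. None of the 12 passed in every fit with a library left out.

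**Figure D3:**
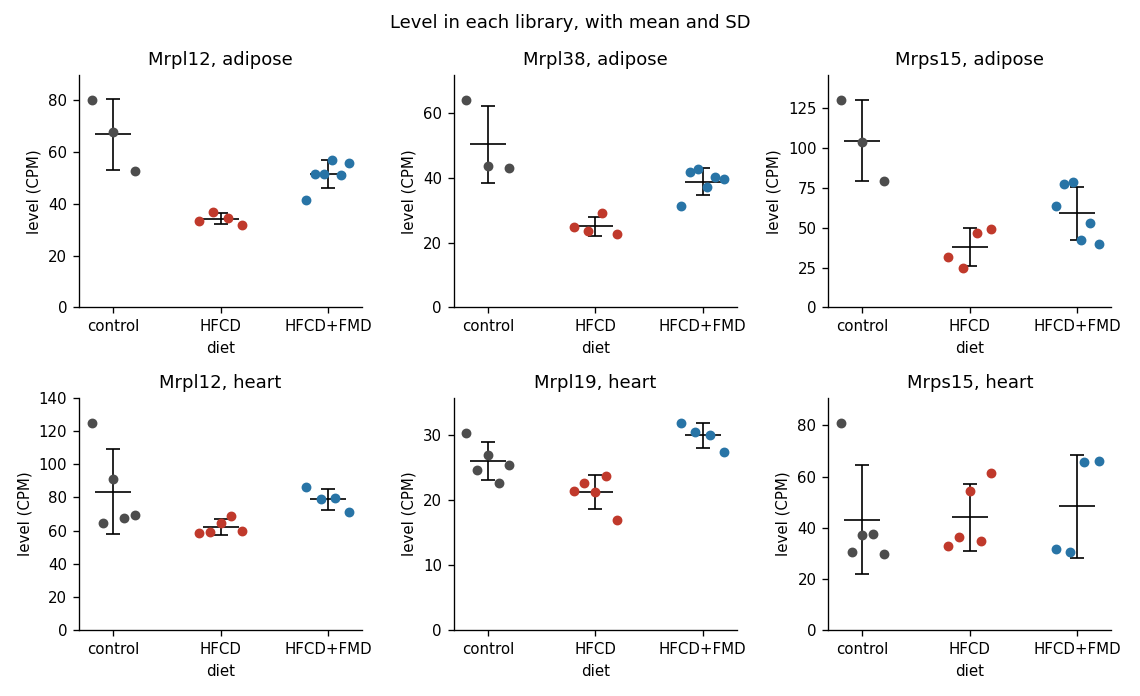
Level of Mrpl12, Mrpl38 and Mrps15 in adipose tissue and of Mrpl12, Mrpl19 and Mrps15 in heart (vertical axis, CPM) in each library by diet, with the mean and SD. In adipose tissue the HFCD libraries of Mrpl12, at 31.8 to 36.9 CPM, lie below all others. In heart Mrpl12 and Mrps15 each have 1 control library far above the other controls, at 125.0 and 81.2 CPM.

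In heart, the summed level of the large subunit genes was 2104, 1206, 1507, 1238 and 1245 CPM per kb in control replicates 2 to 6. It was 1177, 1137, 1007, 1266 and 1135 CPM per kb on HFCD and 1459, 1368, 1380 and 1283 on HFCD+FMD. Control replicate 2 stood alone at the top, every HFCD+FMD library exceeded every HFCD library, and control and HFCD overlapped. These sums do not allow for the 3 sets of libraries that the authors corrected for. HFCD replicates 1 to 4 shared no set with any HFCD+FMD library, so diet and set can largely not be told apart here. The small subunit sum was 792.4 CPM per kb in control replicate 2, 433.1 to 516.9 in the other controls, 386.1 to 449.5 on HFCD and 440.7 to 508.8 on HFCD+FMD. The ratio of the large to the small sum was 2.79 ± 0.11, 2.70 ± 0.13 and 2.86 ± 0.24 for control, HFCD and HFCD+FMD, with overlapping ranges.

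No heart member passed in any diet comparison in edgeR, in a model that carried the 3 sets of libraries the authors corrected for. Against control, HFCD called 0 of 76 members and 0.0% of all genes, and RLE scaling, DESeq2 and limma voom also called 0 members. At an unadjusted p under 0.05, 23 members were lower and 0 higher, against 6.55% of all genes lower and 6.2% higher. The median was -0.36 for the large and -0.34 for the small subunit, against 0.01 over all genes, and 73 of 76 estimates were negative. For 11 members all HFCD libraries lay below all control libraries, as for 3.98% of all genes.

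Mrps24, whose protein lies at the messenger RNA entry, stood at 53.9, 28.4, 30.3, 26.1 and 27.6 CPM in controls and at 20.5, 18.2, 10.5, 22.9 and 20.7 CPM on HFCD. The groups did not overlap, but control replicate 2 and HFCD replicate 3 set the ends (log2 fold change -0.76, SE 0.29, edgeR adjusted p = 0.371). Mrps14 (-0.70), Mrpl30 (-0.57), Mrps16 (-0.65) and Mrpl11 (-0.57) had adjusted p of 0.367 to 0.371. Mrpl12, which fell in adipose tissue, read 125.0, 64.3, 90.8, 67.6 and 69.2 CPM in controls and 58.3, 59.0, 64.4, 69.0 and 59.9 CPM on HFCD (-0.41, edgeR adjusted p = 0.385). Its groups overlapped. Mrps2 was 1 of the 3 members with a positive estimate (0.24, edgeR adjusted p = 0.452).

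The heart estimates leaned on control replicate 2, which was the highest library for 56 of 76 members. Its members deviated from the median over libraries by 0.68 on the log2 scale, all genes with transcripts under 1000 bp by 0.81, and genes with transcripts over 4000 bp by -0.42. It also had the highest blood marker sum of the controls, 873.3 CPM. Without it the medians were -0.12 for both subunits, and 2 members were lower at an unadjusted p under 0.05. With the trend on transcript length taken out, the medians were -0.13 and -0.16. HFCD replicate 3 was the lowest library for 39 members, and its short transcripts deviated by -0.32. Using only the libraries with at most 50% mitochondrially encoded counts, the medians were -0.34 and -0.42, and 9 members were lower at an unadjusted p under 0.05. That count was 11 without HFCD replicate 3, 12 without HFCD replicate 2 or control replicate 4, 15 without HFCD+FMD replicate 2 and 36 without control replicate 3.

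Other measures moved with the HFCD group in heart. Cardiomyocyte markers (7 of 7) summed to 40240 to 58620 CPM in controls, 29630 to 39830 CPM on HFCD and 45570 to 54750 CPM on HFCD+FMD. Mitochondrially encoded genes took 27.2 ± 4.07%, 49.6 ± 15.4% and 45.8 ± 18.4% of counts (SD, n = 5, 5 and 4), and their median log2 fold change for HFCD against control was 0.95, with 8 of 17 higher at an unadjusted p under 0.05. Cytosolic ribosomal proteins had a median of -0.48 in the same comparison, with 26 of 68 lower at an unadjusted p under 0.05. None of these lists had a gene past the edgeR threshold there. The part of these measures in the member estimates was not tested.

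**Figure D4:**
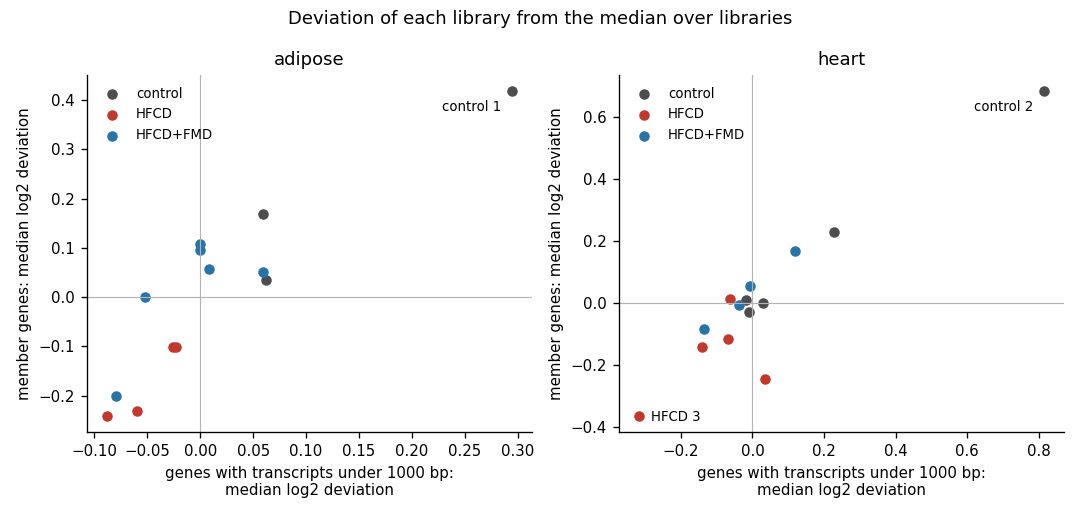
Median log2 deviation of the member genes (vertical axis) against that of all genes with transcripts under 1000 bp (horizontal axis) in each library, adipose tissue and heart, coloured by diet. In heart, control replicate 2 lies alone at the upper right, at 0.81 and 0.68; in adipose tissue, control replicate 1 is the highest for the members, at 0.42.

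Comparing HFCD+FMD with HFCD in heart, 0 of 76 members passed in edgeR, where 0.106% of all genes did. DESeq2 called 2 members higher, against 0.765% of all genes, and limma voom called 0. At an unadjusted p under 0.05, 10 members were higher and 0 lower, against 4.24% of all genes higher and 6.75% lower. The 10 became 2 without HFCD replicate 5, 6 without control replicate 6 and 1 with only the libraries of at most 50% mitochondrially encoded counts, where the medians were 0.43 and 0.35. With all libraries the medians were 0.33 and 0.32, and 69 of 76 estimates were positive. Mrpl19, a large subunit protein with a bacterial counterpart, had 31.96, 30.6, 30.0 and 27.4 CPM on HFCD+FMD and 21.5, 22.7, 21.3, 23.8 and 16.9 CPM on HFCD (log2 fold change 0.68, SE 0.16, edgeR adjusted p = 0.102). Mrpl45, whose protein anchors the mitoribosome at the inner membrane by the tunnel exit, had 58.3, 57.5, 51.7 and 46.3 CPM against 39.7, 36.5, 30.7, 41.4 and 23.7 CPM (0.88, SE 0.23, edgeR adjusted p = 0.135).

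For 12 members, Mrpl19 and Mrpl45 among them, all HFCD+FMD libraries lay above all HFCD libraries, as for 2.59% of all genes. That count does not allow for the library sets, which largely follow diet here. HFCD replicate 5 was the lowest library for both Mrpl19 and Mrpl45. These were the 2 genes that DESeq2 called (adjusted p = 0.00572 and 0.018). Without HFCD replicate 5 their estimates were 0.50 and 0.52, with an edgeR adjusted p of 0.96 for each, and no HFCD library was then left in the library set that holds HFCD+FMD replicates 2, 3 and 5. Mrpl19 shares 1962 bp of exon with Gcfc2 on the opposite strand, and whether counting used strand is not given in the sources used here. Mrpl18, a protein of the central protuberance, had an estimate of 0.92 (edgeR adjusted p = 0.246). It stood at 63.4 and 56.0 CPM in HFCD+FMD replicates 1 and 2 but at 31.1 and 27.6 CPM in replicates 3 and 5, which had high mitochondrially encoded shares.

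HFCD+FMD was compared with control in heart as well. The only library set with both diets held HFCD+FMD replicate 1 with control replicates 4 and 6. HFCD+FMD replicates 2, 3 and 5 shared a set with no control library. The edgeR test called 0 of 76 members and 0.0227% of all genes, and DESeq2 and limma voom called 0 members. At an unadjusted p under 0.05, 2 members were higher and 2 lower, against 4.13% and 5.35% of all genes. The median was -0.03 for the large and -0.03 for the small subunit. With each library left out in turn, the large subunit median ran from -0.216 to 0.076 and the small from -0.1 to 0.078. In every such fit, 30 of 76 estimates kept their sign. The missing calls do not show that levels were equal.

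On the control diet, members were mostly higher in heart than in adipose tissue. In a joint edgeR fit of the 12606 genes in both tables, 55 of 76 members were higher and 3 lower in heart, against 31.2% and 32.7% of all genes. Of the large subunit genes 36 were higher and 1 lower of 47, and of the small subunit genes 19 were higher and 2 lower of 29. The median log2 difference was 0.94 and 0.86, against -0.02 over all genes. Tissue and count table cannot be told apart here. The design text gives 18 mice for the 34 labelled libraries, so heart and adipose libraries share animals, and this test and the interaction treat them as independent because no label pairs them. The joint fit carried no heart library sets.

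Mrpl28 showed the greatest difference, with 92.5 ± 24.5 CPM in heart (SD, n = 5) against 18.6 ± 1.56 CPM in adipose tissue (n = 3) on the joint scale (log2 difference 2.31, edgeR adjusted p = 1.88e-07). Mrpl18 (2.08), Mrpl42 (1.98), Mrps23 (1.95), Mrpl44 (1.94) and Mrps9 (1.75) followed. Mrps6 ran the other way, at 21.5 ± 5.42 CPM in heart and 71.4 ± 11.0 CPM in adipose tissue (-1.73, edgeR adjusted p = 1.83e-07), with the Slc5a3 overlap named above. The other 2 lower genes were Mrpl20 (-0.60, adjusted p = 0.0338) and Mrps18b (-0.43, adjusted p = 0.0185). The 5 measured mitoribosomal proteins with other names were all higher in heart, with a median of 1.16, as were 15 of 16 translation factors, with a median of 0.95. Cytosolic ribosomal proteins were divided, with 17 higher and 8 lower of 67.

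**Figure D5:**
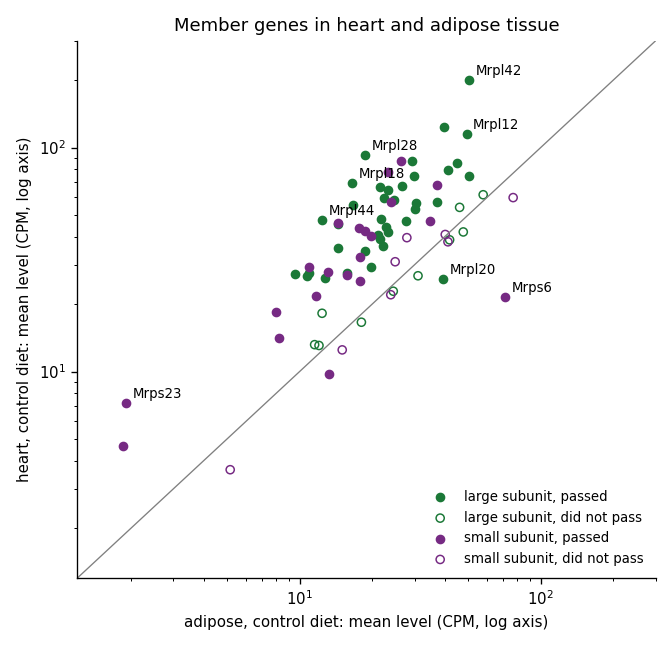
Mean level of each member gene on the control diet in heart (vertical axis, CPM, log axis) against adipose tissue (horizontal axis, CPM, log axis), with large and small subunit in separate colours and filled points for an edgeR adjusted p under 0.05. Most members lie above the line of equal level; Mrps6, at 21.5 CPM in heart and 71.4 in adipose tissue, lies far below it.

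Whether diet acted differently on the members in the 2 tissues was tested as an interaction in the joint fit. For HFCD against control, 12 of 76 members differed, 7 of the large and 5 of the small subunit, each with a higher estimate in heart than in adipose tissue. Over all genes 10.6% differed in that direction. Mrps2 had the smallest p of these, at 1.06 on the log2 scale (SE 0.23, edgeR adjusted p = 0.00274). The separate fits of each tissue gave it -0.78 in adipose tissue and 0.24 in heart. Mrps15 differed by 1.45 (SE 0.47, edgeR adjusted p = 0.0292) and Mrpl39 by 0.81 (adjusted p = 0.0256). With terms for the heart library sets in the joint fit, 3 of the 12 still passed, against 7.61% of all genes, namely Mrps2 (0.99, SE 0.24, edgeR adjusted p = 0.00788), Mrpl50 (0.64) and Mrpl1 (0.57), whereas Mrps15 (adjusted p = 0.0761) and Mrpl39 (adjusted p = 0.0629) did not. The 12 (15.8% of members) also became 2 without adipose control replicate 1, against 6.39% of all genes, and 4 with only the heart libraries of at most 50% mitochondrially encoded counts, against 7.2%. Under each of these 3 settings the share of members was below that of all genes. The count was 5 and 6 without adipose HFCD replicates 2 and 1, 7 without heart control replicate 3 or 5, and 22 without heart control replicate 2. For HFCD+FMD against HFCD the interaction called 0 of 76 members in edgeR, against 0.0159% of all genes, with 2 members at an unadjusted p under 0.05. For HFCD+FMD against control it called 9, all higher in heart (11.8% of members), against 8.35% of all genes. Of these, Mrpl1 alone passed with the heart library sets in the fit (0.74, edgeR adjusted p = 0.0424), against 1.26% of all genes. The count was 1 (1.32% of members) without adipose control replicate 1, against 3.82% of all genes. It was also 1 with only the heart libraries of at most 50% mitochondrially encoded counts, against 2.06% of all genes. In both settings the share of members was below that of all genes. Leaving out heart HFCD+FMD replicate 3 left 2, HFCD+FMD replicate 5 or control replicate 5 left 4, and control replicate 3 left 5. It was also 5 without adipose HFCD+FMD replicate 4 or 6 or control replicate 3, and 20 without heart control replicate 2.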

How the data were processed

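Total RNA of heart and adipose tissue was depleted of ribosomal RNA with the KAPA RNA Hyper+RiboErase kit, per the labels' protocols. The submitters' processing notes name STAR 2.5.3, mm10, R 3.5.3, edgeR and limma; the counting program and its strand setting are not given in the sources used here. The deposited tables hold raw counts per gene, and tables of log2 values normalized by the authors, in heart with batch effects removed. The members and lists were chosen with earlier results of these data known. Libraries were grouped by the diet in the labels. The deposited counts were tested with edgeR 4.0.16 (R 4.3.3; TMM scaling, filterByExpr, robust quasi-likelihood fit of the 3 diets of a tissue, two-sided), with Benjamini-Hochberg adjustment over all genes tested and a threshold of 0.05. In heart the model also carried 3 library sets, read from the term that the deposited log2 values had lost; what the sets stand for is not given. Set A was made up of controls 2, 3 and 5 with HFCD 1 to 4, set B of controls 4 and 6 with HFCD+FMD 1, and set C of HFCD+FMD 2, 3 and 5 with HFCD 5. Both tissues were fitted together, without sets, for the genes in both tables. CPM were scaled by TMM; level per length used the principal transcript of GENCODE M21, and deviations used log2 of CPM plus 0.5.

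The text names the members that passed, up to 12 per subunit by p; the 5 highest and lowest estimates per subunit; a preset list of members in every comparison; the 5 highest and lowest levels; and at most 4 genes per context list. Listed genes with no call (Dap3, Aurkaip1 and 3 regulators) were named besides, after their values were seen. Replicate numbers follow the order of the labels. Alternatives were RLE scaling, DESeq2 1.42.0, limma 3.58.1 (voom, with and without quality weights), the deposited log2 values, other filters, only the compared diets, age as a covariate, no mitochondrially encoded genes, no library sets, set A alone and each library left out; a transcript length offset, the 50% limit on mitochondrially encoded counts and the library sets in the joint fit were added after seeing the data. The fits were tested on simulated data. All sample columns were used (0 unused); 7 labelled libraries were not analysed here. Of the members, 25 share exon positions with a gene that is not a member, 21 of them on the opposite strand, and 3 have named pseudogenes, so their counts are uncertain. Overlaps between members were not counted, and the gene ranges of Mrpl46 and Mrps11 overlap on opposite strands.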

Additional observations from a re-analysis of the deposited data

Results flagged for a closer look

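Of 53 groups of member values tested for a library far from the others, 4 had one, where chance gives about 1 in 20. Heart control replicate 2 stood apart for the summed small subunit level (792.4 CPM per kb), for Mrps24 (53.9 CPM) and for Mrps15 (81.2 CPM). Adipose HFCD+FMD replicate 1 stood apart for Mrpl12, at 41.4 CPM.

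The change from control to HFCD differed between heart and adipose tissue for 12 members, each with a higher estimate in heart, in the edgeR interaction test. That is 15.8% of members, against 10.6% of all genes. The count fell to 2 without adipose control replicate 1, against 6.39% of all genes. It fell to 3 with the heart library sets in the fit, against 7.61% of all genes. The differences on the log2 scale were 0.82 for Mrpl32, 1.01 for Mrpl22, 0.81 for Mrpl39, 0.63 for Mrps18b, 1.45 for Mrps15, 0.56 for Mrpl1, 0.64 for Mrpl51, 0.49 for Mrps17, 1.06 for Mrps2, 0.70 for Mrps35, 0.62 for Mrpl50 and 0.70 for Mrpl42. For HFCD+FMD against control, 9 members differed, with 0.49 for Mrpl49, 0.78 for Mrpl32, 0.77 for Mrpl39, 0.63 for Mrpl1, 0.59 for Mrps31, 0.53 for Mrps17, 0.95 for Mrps2, 0.51 for Mrpl50 and 0.86 for Mrpl42. That is 11.8% of members, against 8.35% of all genes. The count fell to 1 without adipose control replicate 1, against 3.82% of all genes, and to 1 with the heart library sets, against 1.26%. Both sets of differences use the same control libraries.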

How the results depend on the processing

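No paired analysis was possible because the labels carry no replicate numbers. With each library left out in turn, the number of members called in adipose tissue ran from 19 to 45 for HFCD against control, 0 to 2 for HFCD+FMD against HFCD and 0 to 23 for HFCD+FMD against control. The last count was 0 without control replicate 1, 5 without control replicate 3, 7 without HFCD+FMD replicate 4 or 6, and 23 without control replicate 5. The large subunit median ran from -0.51 to -0.28 for HFCD against control and from -0.35 to -0.11 for HFCD+FMD against control. In heart, for HFCD against control, it ran from -0.46 to -0.12 and the small subunit median from -0.44 to -0.11. For adipose HFCD+FMD against HFCD, DESeq2 called 7 members, voom with quality weights 8, the compared diets alone 2 and the length offset 2. DESeq2 called 0.769% of all genes higher there. For methods other than DESeq2, here and below, the share of all genes called is not given. Their counts therefore cannot be read as particular to the members. For adipose HFCD+FMD against control, voom called 6 and the compared diets alone 3. In heart HFCD against control, the large subunit median was -0.10 with quality weights and -0.13 with the length offset, and the small subunit median -0.11 with quality weights. In heart HFCD+FMD against HFCD, DESeq2 called 2 members, the deposited log2 values 9 and the compared diets alone 1. The deposited values called 3 for HFCD+FMD against control. Those heart values had already lost the set terms and were fitted without sets. That fit does not allow for the removal, so its p-values may be too small. The tissue interaction ran from 2 to 22 members for HFCD against control and 1 to 20 for HFCD+FMD against control with a library left out, and called 4 and 1 with the heart libraries of at most 50% mitochondrially encoded counts, and 3 and 1 with the heart library sets in the joint fit. The adipose small subunit sum on HFCD was 72.1% of control without the 3 members of highest level over both subunits. For HFCD against control, the sign turned in adipose tissue for Mrpl44 (-0.077 to 0.346 with a library left out, negative without control replicate 3 or HFCD replicate 1), Mrps7 (-0.233 to 0.038, positive without control replicate 1) and Mrps18c (0.086, length offset). In heart it turned for Mrps15 (0.025 without library sets, 0.141 with the length offset, -0.437 to 0.192 with a library left out, positive without control replicate 2). None of these 4 passed in its main comparison in that tissue. The cause of these shifts was not tested. Counts are few for Mrpl23, Mrps36, Mrps33 and Mrps23, which limits their precision.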

Other observations

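Mrps36 and Mrps15 varied between libraries of the same diet. In adipose tissue, Mrps36 read 0.496 CPM in HFCD replicate 1, 0.806 CPM in HFCD replicate 2 and 0.815 CPM in HFCD+FMD replicate 6. These 3 libraries had the lowest mitochondrially encoded shares of the tissue, 2.17% to 2.29%. They also held cardiomyocyte markers at 108.5, 56.8 and 130.9 CPM in that order. Adipose control replicate 1 held 85.1 CPM of these markers, and the rest of the tissue 2.99 to 13.5 CPM. The other 10 libraries, with shares of 3.90% to 29.3%, held 2.95 to 7.38 CPM of Mrps36. In heart, Mrps36 read 7.95 to 10.6 CPM in the 4 libraries with shares of 59.8% to 71.5% and 1.59 to 5.00 CPM in the other 10. Mrps15 read 54.5 to 66.1 CPM in those 4 heart libraries and 29.9 to 37.5 CPM in the others, apart from 81.2 CPM in control replicate 2. Mrps2 overlapped between the same libraries, at 33.2 to 49.7 CPM against 25.7 to 34.8 CPM. Mrps14 read 8.33 to 13.9 CPM in the same 4 libraries and 13.5 to 29.5 CPM in the other 10. Mrpl18 ran the other way from Mrps36 in heart, at 17.9 to 31.1 CPM in the 4 libraries and 38.1 to 63.4 CPM in the others, without overlap. Mrps36 has 3 named pseudogenes and few counts. These patterns were noticed in the data and were not tested.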
